A study of Drosophila melanogaster with 12 samples.

Results

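His2Av, His3.3A, BigH1, Slbp and Lsm11 are 5 genes of histone supply in Drosophila melanogaster: 3 encode histone variants and 2 encode factors that make the ends of histone messages. They were chosen by name from the linear RNA table, in which all 5 were listed, with 7 transcripts, among 10162 transcripts of 5954 genes. The data come from stage 14 follicles, the mature egg chambers of the ovary, of the wild-type stock Oregon R. Follicles labelled day 12 were compared with follicles labelled day 2, with 3 linear RNA libraries for each day. No treatment, transgene or other allele is named for either day, and the labels do not say from when the days were counted.

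An egg is laid with its own store of histones and histone messages, because the first nuclear cycles of the embryo run faster than new transcripts can be made. Most histone is encoded by repeated replication-dependent genes, whose messages end in a stem-loop in place of a poly(A) tail. Slbp binds that stem-loop, and the U7 small nuclear ribonucleoprotein, with Lsm10 and Lsm11 in its ring, directs the cut that makes the end. Histone variants are encoded by genes outside the repeats, and their messages are polyadenylated.

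The deposited linear RNA table gives 1 abundance per transcript and day, assigned to 3 libraries, in a unit that is not named. Each value is taken here as the mean of its 3 libraries, which the headers do not state. With no values of single libraries used here, neither an SD nor the overlap of the libraries between days can be given. The depth behind each value is unknown. Levels of different genes are set side by side on the assumption that the values are per transcript length, as the abundances of StringTie are. All p-values are those of the authors' deposited table, where the test is not named, and the call used here is an adjusted p below 0.05.

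The variants His2Av, BigH1 and His3.3A were abundant on both days, Slbp was at a middle level and Lsm11 was low. The day 12 mean was above the day 2 mean for His2Av, BigH1, His3.3A and Slbp, by 7.57% to 17.7%, and below it for Lsm11, at 0.556 of the day 2 level. None of the 5 was called by its most abundant transcript, against 0.218% of all genes, and their adjusted p ran from 0.134 to 0.604 in the authors' deposited table. At p under 0.05 before adjustment there were 2: His2Av, with the higher mean at day 12, where 13.5% of all genes had such a p, and Lsm11, with the lower mean, where 9.07% did. In either direction the share of all genes was 22.5%. The median log2 ratio of day 12 over day 2 was 0.12 for the 5 genes and 0.04 over all genes, of which 3481 had the higher sum at day 12 and 2471 the lower.

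**Figure D1:**
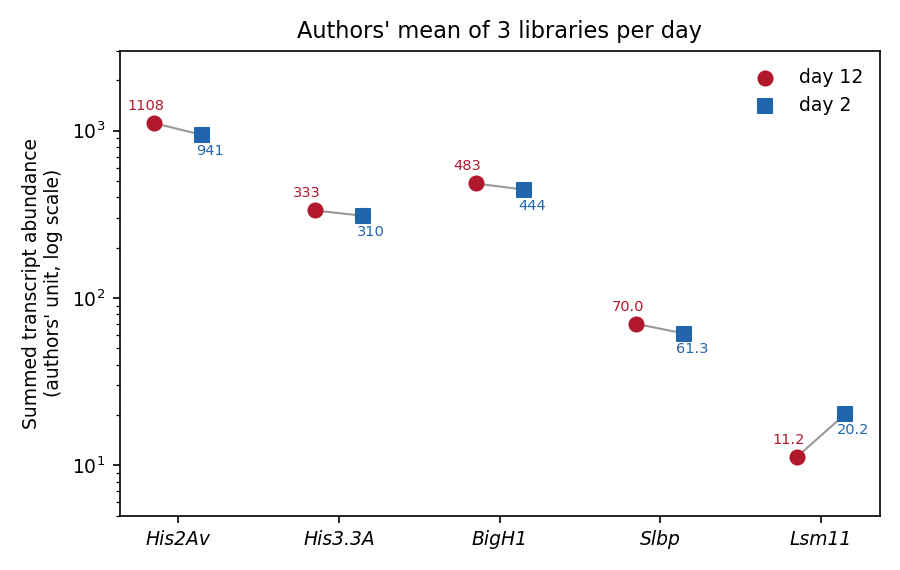
Summed transcript abundance of each gene (vertical axis, the authors' unit on a log scale) at day 12 (circles) and day 2 (squares). Each is the authors' value for 3 libraries, taken as their mean, with no error available. The day 12 mean lies above the day 2 mean for His2Av, His3.3A, BigH1 and Slbp, and below it for Lsm11, at 11.2 against 20.2.

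His2Av encodes the fly's H2A variant, which carries the roles that other animals divide between H2A.Z and H2A.X. The gene lies on chromosome 3R from 26866929 to 26869220 on the plus strand in dm6 coordinates. Both of its annotated transcripts were listed, and both code for the same 141 amino acids. They share the start and the first exons and differ after the coding region, where His2Av-RB has a further exon and is 257 nt longer. His2Av-RA, with 4 exons and 912 nt, stood at 1085 at day 12 and 919 at day 2. His2Av-RB stood at 22.9 at day 12 and 22.5 at day 2. The short form thus made up 97.9% of the gene's summed value at day 12 and 97.6% at day 2.

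Summed over both transcripts, His2Av was at 1108 at day 12 and 941 at day 2, rank 92 of 5954 genes by the mean of both days. The log2 ratio was 0.24, which is 1.18-fold. The p of His2Av-RA was 0.00705 before and 0.160 after adjustment in the authors' deposited table, and that of His2Av-RB was 0.624 before adjustment. Among the 277 genes with a mean of at least 300, only 10, His2Av included, had a ratio as high. In that group the median was 0.09, and the 5th and 95th percentiles were -0.46 and 0.22. An unadjusted p under 0.05 stood beside 32.5% of these abundant genes.

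His3.3A is one of a pair of genes for the variant H3.3, the H3 that can be put into chromatin outside replication, and both genes encode the same protein. It lies on chromosome 2L from 5055058 to 5056149 on the plus strand. Of its 3 annotated transcripts, which share a coding region of 136 amino acids, 2 were listed. His3.3A-RD, of 772 nt, was at 331 at day 12 and 308 at day 2. His3.3A-RA, which starts 76 nt further upstream, was at 2.59 at day 12 and 1.56 at day 2, less than 1% of the gene's sum on either day. His3.3A-RC, with a longer last exon, was not among the listed transcripts.

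The sum of His3.3A was 333 at day 12 and 310 at day 2, with a log2 ratio of 0.11. The p of its main transcript was 0.169 before and 0.521 after adjustment in the authors' deposited table. The sister gene His3.3B was at 1058 at day 12 and 1073 at day 2. Together the pair summed to 1391 at day 12 and 1383 at day 2, and His3.3A supplied 23.9% of it at day 12 and 22.4% at day 2. Most H3.3 message in these follicles was therefore listed under His3.3B on both days. The annotated span of His3.3A overlaps that of Nepl3, a gene of the opposite strand, by 168 bp. This span includes the longer last exon of His3.3A-RC, and the overlap of the listed transcripts alone was not measured. Nepl3 was at 32.3 at day 12 and 32.2 at day 2. The sources used here give neither whether the counting used strand nor how reads common to the H3.3 pair were divided.

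BigH1 encodes the linker histone of the germline and the early embryo, which is later replaced by the somatic H1. The gene lies on chromosome 3R from 14663450 to 14664822 on the plus strand and has 1 annotated transcript of 1279 nt with 2 exons and 353 codons. It was at 483 at day 12 and 444 at day 2, rank 175 of all genes, with a log2 ratio of 0.12. The p was 0.252 before and 0.604 after adjustment in the authors' deposited table, the highest of the 5 genes. The 15 listed His1 copies, the somatic linker histone genes of the repeats, had a total of 1162 at day 12 and 1053 at day 2, and the log2 ratios of single copies ran from -1.65 to 4.12. Those copies are nearly identical, and reads cannot be placed among them with certainty. How RNA was selected for the libraries was not taken into account here. Messages without a poly(A) tail may therefore be counted differently from polyadenylated ones such as that of BigH1.

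**Figure D2:**
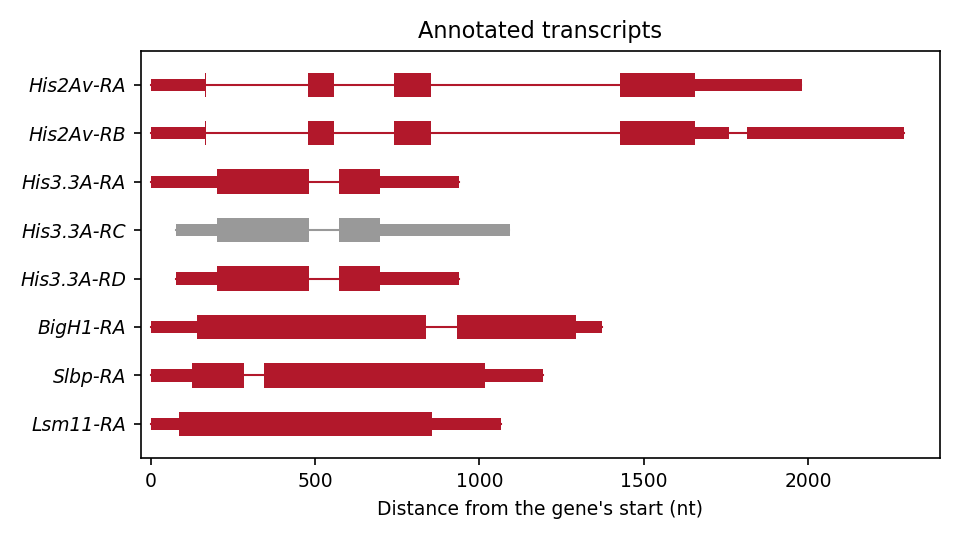
Annotated transcripts of the 5 genes drawn from each gene's start (horizontal axis, nt), with exons as boxes, coding parts as taller boxes and introns as lines. Listed transcripts are red and His3.3A-RC, which was not listed, is grey. The listed forms of His2Av and of His3.3A differ outside the coding region, and Lsm11 has no intron.

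Slbp, the stem-loop binding protein of histone messages, is needed for their processing, and in the fly for their supply to the egg. The gene lies on chromosome 3R from 29152074 to 29153266 on the minus strand, with 1 annotated transcript of 1132 nt and 276 codons. Slbp was at 70.0 at day 12 and 61.3 at day 2, a log2 ratio of 0.19. The p was 0.104 before and 0.424 after adjustment in the authors' deposited table. Among the 2554 genes with a mean from 30 to 100, 291, Slbp included, had a ratio at least as high, and the median was 0.06.

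Lsm11 is the ring subunit of the U7 particle that also holds the processing factor FLASH. It lies on chromosome 2R from 9838434 to 9839500 on the minus strand, as a single exon of 1067 nt with 256 codons. Lsm11 was at 11.2 at day 12 and 20.2 at day 2, the lowest level of the 5 genes. Its log2 ratio of -0.85 was the largest difference in size among them and ran the other way. The p was 0.00353 before and 0.134 after adjustment in the authors' deposited table, so it was not called. Of the 5315 genes with a mean of at least 10, 49, Lsm11 included, had a ratio as low, or 0.922%. Of the 1678 genes with a mean from 10 to 30, 26 did, with a median of -0.04 and a 5th percentile of -0.51. Lsm11 shares 48 bp of its span with CG1663 of the opposite strand, which was at 51.5 at day 12 and 52.6 at day 2.

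**Figure D3:**
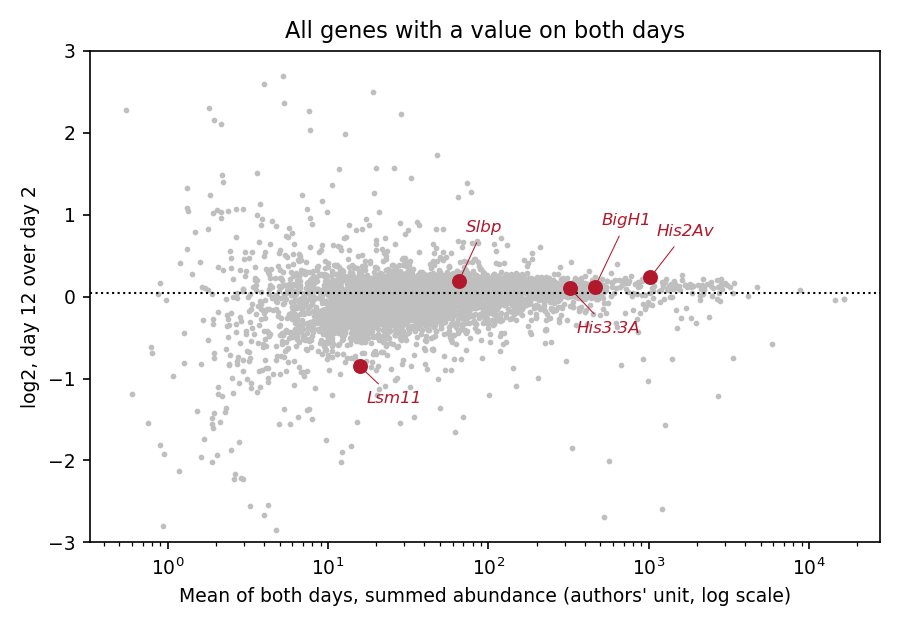
Each grey point is 1 of 5912 genes, by the mean of both days (horizontal axis, log scale) and the log2 ratio of day 12 over day 2 (vertical axis), and the dotted line is the median of all genes at 0.04. A further 40 genes lie outside the vertical axis. The 3 variants and Slbp (red) lie above the dotted line, and Lsm11 lies below the main body of points at -0.85.

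The partners of Lsm11 had means closer together. Lsm10, the other subunit particular to the U7 ring, was at 16.5 at day 12 and 17.6 at day 2 (log2 ratio -0.10, p = 0.120 before adjustment in the authors' deposited table). The ratio of Lsm11 to Lsm10 was 0.682 at day 12 and 1.15 at day 2. FLASH, which binds Lsm11 and helps recruit the cleavage enzyme, summed to 31.0 at day 12 and 26.2 at day 2, the highest summed log2 ratio of the processing genes at 0.25. Its most abundant transcript ran the other way, at 14.7 at day 12 and 17.6 at day 2, with p = 0.339 before adjustment in the authors' deposited table. The ratio of Slbp to Lsm11 was 6.23 at day 12 and 3.03 at day 2. These ratios have no replicate check, and the difference between genes was not tested.

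Of 21 genes listed for histone mRNA processing, 20 were measured, with 10 sums higher and 10 lower at day 12 and a median log2 ratio of 0.02. None was called, and 3 of the 20 had a p under 0.05 before adjustment, against 22.5% of all genes, each with the lower mean at day 12. Besides Lsm11 these were CstF64 and SmB. CstF64, of the cleavage machinery, had means of 27.6 at day 12 and 33.0 at day 2, with p = 0.0158 before adjustment in the authors' deposited table. SmB, a protein of the common Sm ring, was at 240.2 at day 12 and 240.6 at day 2, where the authors' deposited table gives p = 0.00771 before adjustment. A low p thus stood beside nearly equal means for SmB, and the deposited p does not follow the size of the ratio.

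The endonuclease Cpsf73, which cuts histone messages, had means of 39.1 at day 12 and 40.7 at day 2. Its partner Cpsf100 was at 29.4 at day 12 and 31.6 at day 2. For the scaffold Sym the means were 15.5 at day 12 and 16.1 at day 2. The organiser of the histone locus body, mxc, was at 20.1 at day 12 and 20.5 at day 2. The summed log2 ratios of these 4 genes ran from -0.10 to -0.03. For Sym the most abundant transcript, listed under an assembly identifier and not an annotated one, was at 0.17 instead. These 4 genes were named after their values were seen, and 10 of the 20 measured genes of the list had the higher sum at day 12. The ring proteins SNRPG and SmF, which with SmB had the highest levels of the list, were at 317 and 228 at day 12 and at 309 and 218 at day 2. The gene wge had the largest absolute log2 ratio after Lsm11. It was at 5.71 at day 12 and 8.88 at day 2, with p = 0.924 before adjustment in the authors' deposited table.

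The 6 histone variant genes were all measured, and none was called. Of them, 5 had the higher sum at day 12 and His3.3B the lower, with a median log2 ratio of 0.11. This list holds His2Av, His3.3A and BigH1 themselves. Without them, the other 3 had a median of 0.0016, with 2 sums higher at day 12 and 1 lower. Their total was 1492 at day 12 and 1499 at day 2. cid, the H3 variant of centromeres, was at 107 at day 12 and 99.1 at day 2. His4r, a polyadenylated gene for H4 outside the repeats, was at 326.5 at day 12 and 326.2 at day 2. Only His2Av, 16.7% of the list against 22.5% of all genes, had an unadjusted p under 0.05. Of the 30 listed replication-dependent copies, the His2B copies summed to 333 at day 12 and 259 at day 2, the His3 copies to 886 at day 12 and 940 at day 2, and the His4 copies to 1689 at day 12 and 1853 at day 2. None of the 30 was called, against 0.218% of all genes, and 1 had an unadjusted p under 0.05, against 22.5% of all genes. The limits given for the His1 copies, on placing reads and on RNA selection, hold for all of these copies.

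**Figure D4:**
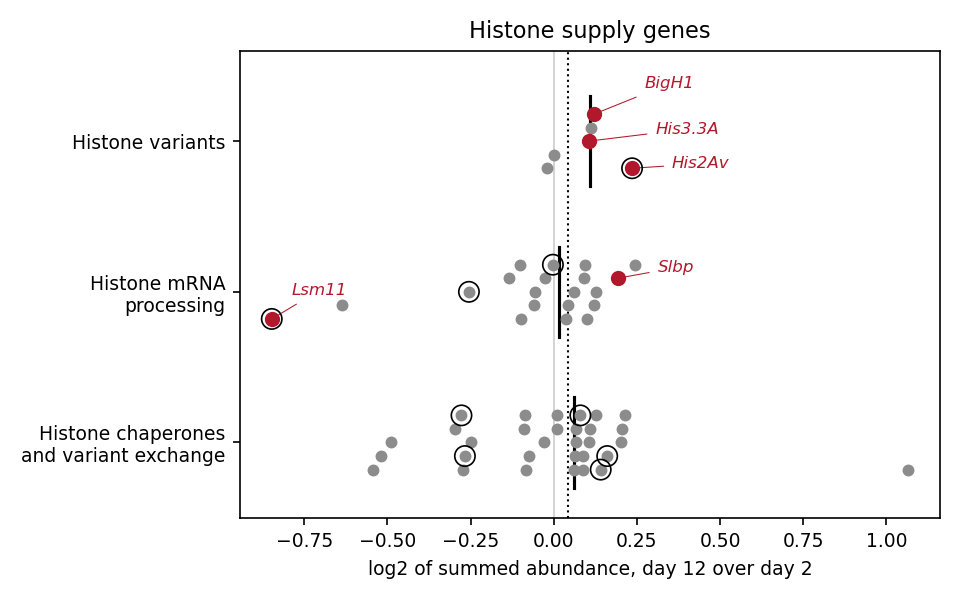
Log2 ratio of summed abundance, day 12 over day 2 (horizontal axis), for the measured genes of 3 lists, with the 5 genes in red, the median of each list as a bar and the median of all genes as a dotted line. Rings mark a p under 0.05 before adjustment, as the authors deposited it: 1 of 6 variants, 3 of 20 processing genes and 5 of 31 chaperone and exchange genes. Vertical spread within a list has no meaning.

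Chaperones carry histones to chromatin, and exchange complexes put the variants in. Of 34 such genes, 31 were measured, with 18 sums higher and 13 lower at day 12 and a median log2 ratio of 0.06. None was called, and 5 had an unadjusted p under 0.05, or 16.1% against 22.5% of all genes. Among them, Hira and yem, which act together to place H3.3 in the male pronucleus, both had the lower mean at day 12. Hira was at 27.0 at day 12 and 32.8 at day 2, and yem was at 29.6 at day 12 and 35.6 at day 2. Their log2 ratios were -0.28 and -0.27, with adjusted p-values of 0.199 and 0.140 in the authors' deposited table.

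The other 3 had the higher mean at day 12. Nph, of the nucleoplasmin family of histone chaperones, was at 790 at day 12 and 706 at day 2, and Nlp, of the same family, at 721 at day 12 and 653 at day 2. The log2 ratios of Nph and Nlp were 0.16 and 0.14, with adjusted p-values of 0.143 and 0.208 in the authors' deposited table. Nipped-A, a scaffold shared by the Tip60 complex, was at 68.6 at day 12 and 64.9 at day 2. Nap1, a chaperone of H2A and H2B, had the highest level of the list, at 1094 at day 12 and 1045 at day 2.

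The next genes of the list, which act on the H2A variant or store it, were named after their values were seen, and each had a p above 0.05 before adjustment. The exchange ATPase dom was at 57.2 at day 12 and 60.8 at day 2. Tip60, the acetyltransferase of the same complex, had means of 46.2 at day 12 and 49.0 at day 2. YL-1, the subunit that binds the H2A variant, was at 55.1 at day 12 and 47.8 at day 2. Jabba, which anchors H2A, H2B and His2Av on lipid droplets of the egg, summed to 474 at day 12 and 412 at day 2 over 9 listed transcripts. Its most abundant transcript is listed under an assembly identifier and not an annotated one. That transcript differed far more than the sum, at 323 at day 12 and 61.6 at day 2. The difference is a log2 ratio of 2.39, with p = 0.811 before adjustment in the authors' deposited table. How abundance was divided among the 9 transcripts was not tested. Of the helicases pont and rept, pont was at 86.1 at day 12 and 79.8 at day 2, and rept at 69.6 at day 12 and 71.1 at day 2. The largest absolute log2 ratios of the list, in either direction, belonged to low genes. MrgBP was at 9.96 at day 12 and 4.76 at day 2. Brd8 was at 12.4 at day 12 and 18.1 at day 2, and XNP at 10.2 at day 12 and 14.6 at day 2. Before adjustment, the p-values of MrgBP, Brd8 and XNP in the authors' deposited table were 0.376, 0.0808 and 0.156.

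The 5 genes also share short messages. Their most abundant transcripts had 772 to 1279 nt, against a median of 1776 nt over the 5241 genes whose most abundant transcript is annotated. The 1049 genes with lengths in that range had a median log2 ratio of 0.08, and 787 of them had the higher sum at day 12. Of these, 60 had a ratio at least as high as His2Av and 22 a ratio at least as low as Lsm11, each count including the gene itself. Length and level thus went along with small excesses at day 12 like those of BigH1 and His3.3A, and their part in the values was not tested.

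By distance over the log2 values of both days, the genes nearest to His2Av were kra at 1088 at day 12 and 957 at day 2 and Ran at 1149 at day 12 and 999.5 at day 2. Those nearest to His3.3A were Trx-2 and Art1, those nearest to BigH1 were CG1943 and Arf79F, and those nearest to Slbp were CG42240 and fu12. The nearest to Lsm11 were alpha-Spec, at 11.1 at day 12 and 19.5 at day 2, and CG16935, at 10.7 at day 12 and 19.6 at day 2. With a single mean per day, this likeness covers level and ratio over 2 points and nothing more.

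A stage 14 follicle holds an oocyte within a layer of follicle cells. All 7 germline and oocyte markers were measured, with the lowest level for bcd (63.8 at day 12 and 56.6 at day 2) and the highest for CycB (1900 at day 12 and 1702 at day 2). The sum was higher at day 12 for 6 of them and lower for vas, at 71.3 at day 12 and 76.3 at day 2. Their median log2 ratio was 0.16, and all 7 together summed to 4262 at day 12 and 3781 at day 2. Of 15 follicle cell markers 7 were measured, 3 with the higher and 4 with the lower sum at day 12, and their total was 197 at day 12 against 413 at day 2. The chorion gene Cp15 alone was at 20.8 at day 12 and 254 at day 2, and without it the other 6 had a total of 176 at day 12 against 159 at day 2. The yolk protein genes Yp1, Yp2 and Yp3, each under 10 on both days, had the lower sum at day 12. Ilp8 was at 80.1 at day 12 and 50.1 at day 2, sn at 64.9 at day 12 and 59.7 at day 2, and ttk at 28.9 at day 12 and 27.8 at day 2. In such bulk RNA, fewer cells of a type and less RNA per cell cannot be told apart, and the part of follicle cells in the ratios of the 5 genes was not tested. Of 9 muscle markers only Tm1 was listed, and of 5 haemocyte markers only crq.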

How the data were processed

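The linear RNA table holds the signal values that the authors deposited, which are transcript abundances with 1 value per day assigned to 3 libraries per the file headers. The submitters' processing notes name build dm6 and the tools DESeq2, HISAT2, STAR and StringTie, without versions or roles. The p-values are those of the authors' deposited table, and the adjusted ones equal a Benjamini-Hochberg adjustment over all 10162 transcripts. Samples were grouped by title. For each gene, the values of its listed transcripts were added up at each day, and the log2 ratio of day 12 over day 2 was formed without a pseudocount, with Python 3.11.15 and pandas 2.3.3. A gene's p is that of its most abundant transcript. The table used here has no values per library, so no test was run beside the one the authors deposited. Positions, which are those of dm6, and lengths come from Ensembl release 115. Besides the 5 genes, the text names list genes with an unadjusted p under 0.05. It also names the 3 with the largest absolute log2 ratio and the 3 with the highest level in each list, and the 2 nearest genes. Others, and the windows of level and length, were chosen after values were seen. The members and lists were chosen with earlier results of these data known. The circRNA table names no host genes and was not used here, and no sequences are printed.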

Additional observations from a re-analysis of the deposited data

How the results depend on the processing

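The summed log2 ratios of the 5 genes kept their sign and moved by less than 0.1 with the most abundant transcript alone, annotated transcripts only, a pseudocount of 1, values divided by the day's total, or the median of all genes subtracted. They ranged from 0.19 to 0.24 for His2Av, 0.06 to 0.11 for His3.3A, 0.08 to 0.12 for BigH1, 0.15 to 0.19 for Slbp and -0.89 to -0.79 for Lsm11. Most of these settings had little room to move them. All listed transcripts of the 5 genes are annotated, and BigH1, Slbp and Lsm11 have a single one each. Dividing by the day's total or subtracting the median shifts the log2 ratio of every gene by the same amount. The bound of 0.1 was only a setting for calling a move between processing choices the same. It does not measure the spread between libraries, which is unknown here. Counts of called genes were 0 with any listed transcript and with a minimum mean of 1. With the unadjusted p under 0.05 they were 2 of the 5 genes and 3 of 20 processing genes. They were also 1 of 6 variant genes and 5 of 31 chaperone and exchange genes. At that unadjusted p, the share of all genes was 22.5%. The processing median of 0.02 was -0.03 with the median of all genes subtracted. No paired analysis was possible because the table holds 1 mean per day. No library could be left out for the same reason.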
